A study of Rattus norvegicus with 20 samples.

Results

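The 37 mitochondrially encoded genes of the rat were described in whole kidneys, as every row that the deposited tables place on the mitochondrial chromosome (MT), out of 32907 genes listed in either table. They are 13 protein-coding, 2 rRNA and 22 tRNA genes, and the same 37 genes stand in both tables. The kidneys came from wild-type male Wistar rats, 10 to 12 weeks old, treated for 28 days through an osmotic minipump under the skin, and 20 bulk RNA-seq libraries were made. The calcineurin inhibitor cyclosporine A (n = 4, target trough 3 mg/ml as the design text writes it) has its own vehicle, saline (n = 4). The calcineurin inhibitor tacrolimus (n = 6, target trough 3.5 ng/ml) has its own vehicle, 25% DMSO with 75% PEG500 (n = 6, called DMSO/PEG below). Each drug and its vehicle share a table, and the tables were normalized separately. The labels do not state that each library came from a different animal, so p-values measure the spread between these libraries.

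The mitochondrial genome encodes subunits of complexes I, III and IV of the respiratory chain and of the ATP synthase, with the rRNAs and tRNAs that translate them inside the organelle. Its strands are copied into long precursor RNAs, which are cut at the tRNAs that stand between most of the other genes. The remaining subunits, and all proteins that copy and process the genome, are encoded in the nucleus. Kidney tubules are rich in mitochondria because salt reabsorption uses much ATP.

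Values were read as FPKM, fragment numbers scaled for gene length and library depth, a unit inferred from the values themselves. The fragment numbers and mitochondrial shares below rest on that reading, under which 74.2% of values in the cyclosporine A table and 100% in the tacrolimus table came out as whole fragments with the listed gene length. In the cyclosporine A table the depth is all assigned fragments of the library, mitochondrial ones included, and no scaling between libraries was found. Rescaled FPKM divides each library by its median ratio over nuclear genes only, so that the mitochondrial share no longer moves the nuclear values. In the tacrolimus table the deposited values already had near-equal median ratios over nuclear genes. The rescaling factors differed between libraries by only 0.0484%, so the deposited values are given. Whether that table was scaled on nuclear genes only or on all genes cannot be told from these factors.

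Assigned fragments per library numbered 30467652 to 34307942 for saline and cyclosporine A, and 31670202 to 39358485 for DMSO/PEG and tacrolimus. Mitochondrial fragments numbered 17052151 to 28787123 and 3330446 to 5783355 per library, so counting error is small for the protein-coding and rRNA genes, each with at least 1180 fragments in every library. Markers of proximal tubule, thick ascending limb, collecting duct, podocyte and endothelium were above 0 in all libraries. Pvalb, a distal convoluted tubule marker, was at 0 in all. Marker levels differed between the separately normalized tables, here as summed rescaled FPKM with saline and with DMSO/PEG. Proximal tubule sums were 157 to 238 and 2255 to 2591, and podocyte sums 0.544 to 1.73 and 41.3 to 56.1. Collecting duct sums were 77.1 to 135 and 216 to 304 for principal cells, and 54.03 to 114 and 103 to 124 for intercalated cells. The part of tissue make-up in differences between tables or drugs was not tested.

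A few libraries stood apart. Cyclosporine A library 4 had the highest mitochondrial share of all libraries, 90.8%, and a median correlation of log2 nuclear values with its own group of 0.945, against 0.963 to 0.966 in the other 3. Tacrolimus libraries 4 and 6 stood apart in the make-up of their mitochondrial RNA. The share profiles of these libraries were 12.1 to 15.4 percentage points away from those of the other tacrolimus libraries and 4.57 points from each other, taken as the summed absolute difference in shares divided by 2. All pairs without them in that table were 1.18 to 6.19 points apart. The nuclear values of tacrolimus library 4 correlated with its group at a median of 0.990, within the range of the other libraries, and those of library 6 at 0.983, the lowest of its group. Library 6 also had the fewest nuclear genes above 0 in its table, 17853 against 18345 to 19205 in the others. Results that rest on tacrolimus libraries 4 and 6 are therefore given with and without them, a choice made after their values were seen.

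Mitochondrial genes took up most fragments in the cyclosporine A table and a small part in the tacrolimus table. Their share of all assigned fragments was 49.7%, 68.6%, 62.6% and 58.1% in saline libraries 1 to 4, a mean of 59.8% ± 7.97 (SD, n = 4). With cyclosporine A it was 85.6%, 80.2%, 82.0% and 90.8%, a mean of 84.7% ± 4.68 (SD, n = 4), so that the lowest treated library stood above the highest vehicle library. Nuclear genes had 10282872 to 17255791 fragments with saline and 2905422 to 6548795 with cyclosporine A, and 15498 to 16807 and 14130 to 15206 nuclear genes were above 0, both without overlap. The part of this lower nuclear depth, or of RNA quality, in the results of that table was not tested. With DMSO/PEG the share ran from 10.5% over a median of 11.7% to 13.7% (mean 11.9% ± 1.13, SD, n = 6), and with tacrolimus from 10.8% over a median of 11.7% to 15.9% (mean 12.4% ± 1.88, SD, n = 6). Tacrolimus libraries 6 and 4 were the highest of their group, at 15.9% and 13.2%. The vehicles themselves differed, saline against DMSO/PEG, but vehicle and table cannot be told apart in this design. In whole tissue, a change in the number of cells of a type and a change in RNA per cell cannot be told apart either.

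**Figure D1:**
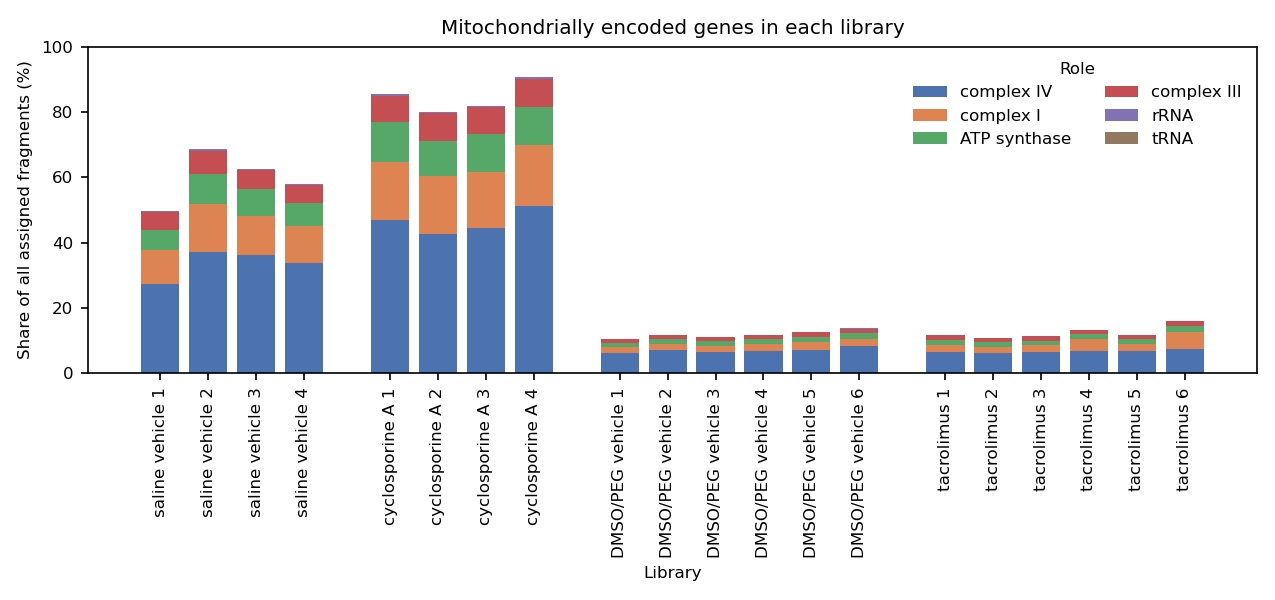
Share of all assigned fragments (percent, vertical axis) taken by mitochondrially encoded genes in each of the 20 libraries, stacked by role. The bars stand between 49.7% and 68.6% with saline, between 80.2% and 90.8% with cyclosporine A and between 10.5% and 15.9% in the tacrolimus table, and complex IV genes make up the largest block in each.

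Measured per length, the protein-coding genes of complex IV and the ATP synthase gene Mt-atp6 led in every group. In saline kidneys the mean deposited FPKM was 125280 ± 16192 for Mt-co1, 113203 ± 18175 for Mt-atp6, 103816 ± 11837 for Mt-co3 and 89066 ± 20055 for Mt-co2 (SD, n = 4). Mt-co1, Mt-co2 and Mt-co3 encode the core of cytochrome c oxidase, the enzyme that passes electrons to oxygen. Mt-cyb (cytochrome b of complex III) followed at 52263 ± 6883, and then the complex I genes Mt-nd1 at 40788 ± 6472, Mt-nd2 at 37502 ± 5973, Mt-nd3 at 25052 ± 6317 and Mt-nd4l at 25010 ± 4920. Mt-nd5 had 9888 ± 1983, Mt-nd6 8383 ± 1808, Mt-nd4 2960 ± 850, the smaller rRNA 2301 ± 542, Mt-atp8 996 ± 260 and the larger rRNA 875 ± 203.

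The order of means was the same in the DMSO/PEG kidneys down to the 17th place, with Mt-co1 at 27962 ± 3047 and the larger rRNA at 155 ± 23.6 (SD, n = 6). Levels are not compared between the tables, which were normalized separately. Many neighbours in this order overlapped in range. In saline libraries, Mt-co1 and Mt-atp6 overlapped, as did Mt-atp6 and Mt-co3, Mt-co3 and Mt-co2, Mt-cyb and Mt-nd1, and Mt-nd1 and Mt-nd2, although Mt-co1 was the higher of the first pair in 4 of 4 libraries. Mt-nd3 and Mt-nd4l were not separated in either sense, since Mt-nd3 was the higher in 2 of 4 saline libraries. Clear steps lay between Mt-nd2 and Mt-nd3, between Mt-nd4l and Mt-nd5, and between the smaller rRNA and Mt-atp8, where no saline library of the higher gene reached a library of the lower.

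Some genes that lie on shared sequence had very different levels. Mt-atp8 and Mt-atp6 overlap by 43 bases on the plus strand, at positions 7758 to 7961 and 7919 to 8599 of MT (rn6, per the submitters' processing notes). Mt-atp6 was 118 ± 26.0 times as high per length as Mt-atp8 with saline, 134 ± 26.3 times with cyclosporine A (SD, n = 4), 101 ± 13.7 times with DMSO/PEG and 108 ± 27.5 times with tacrolimus (SD, n = 6). Mt-nd4l (9870 to 10166) and Mt-nd4 (10160 to 11537) overlap by 7 bases, and Mt-nd4l was higher per length by 8.81 ± 2.00, 8.30 ± 1.78, 6.80 ± 1.00 and 5.94 ± 1.15 times in the same order of groups. In each pair the ranges of drug and vehicle overlapped. How the authors counted fragments in overlaps is not given in the sources used here, so the levels of these genes, and of Mt-nd5 and Mt-nd6, which overlap by 23 bases on opposite strands, are uncertain.

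Within the mitochondrial total, complex IV held the largest share of fragments. In the saline libraries complex IV genes had 56.2% ± 2.02 of mitochondrial fragments, complex I genes 20.2% ± 1.11, the ATP synthase genes 12.9% ± 0.429, Mt-cyb 10.0% ± 0.807, the rRNAs 0.597% ± 0.108 and all tRNAs 0.0868% ± 0.0101 (SD, n = 4). In the DMSO/PEG libraries these shares were 58.1% ± 1.73, 17.9% ± 1.29, 11.8% ± 0.393, 11.6% ± 0.706, 0.539% ± 0.0411 and 0.0965% ± 0.0127 (SD, n = 6). These are shares of sequenced fragments. The part of library preparation in the levels and shares of rRNAs and tRNAs was not tested. Mt-co1 alone (5323 to 6867) had 31.6% to 33.0% with saline and 35.7% to 37.6% with DMSO/PEG.

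With cyclosporine A no protein-coding or rRNA gene had shares of the mitochondrial total that were separate from those with saline. Complex IV had 54.6% ± 1.40, complex I 21.2% ± 0.773, the ATP synthase genes 13.7% ± 0.782, Mt-cyb 9.76% ± 0.545, the rRNAs 0.636% ± 0.115 and the tRNAs 0.0950% ± 0.00525 (SD, n = 4). Over the 13 protein-coding and 2 rRNA genes, the difference in log2 share between cyclosporine A and saline ran from -0.10 (Mt-atp8, SE 0.20) to 0.20 (Mt-nd3, SE 0.16). Relative to its error the difference was largest for Mt-co1, at -0.08 (SE 0.03), where saline libraries had 31.6% to 33.0% and treated ones 29.9% to 31.9%. In 0 of 15 did the groups not overlap. Pairs of libraries from different groups were 2.17 to 5.79 percentage points apart (median 4.37), beside 0.791 to 5.72 (median 4.86) for saline pairs and 2.14 to 5.53 (median 3.55) for cyclosporine A pairs. The saline libraries themselves differed in pairs, with Mt-co2 at 8.31% and 9.07% in libraries 1 and 2 and 11.6% and 11.7% in libraries 3 and 4, and Mt-nd2 at 7.47% and 6.99% beside 5.90% and 5.81%.

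Only the tRNA gene at 5081 to 5152 among the 20 genes described singly had shares that did not overlap between cyclosporine A and saline. Its share of mitochondrial fragments was 0.00722%, 0.00829%, 0.00510% and 0.00590% with saline and 0.00933%, 0.0115%, 0.00926% and 0.00856% with cyclosporine A, a difference in log2 share of 0.56 (SE 0.18). The closest libraries were 0.00829% and 0.00856%.

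**Figure D2:**
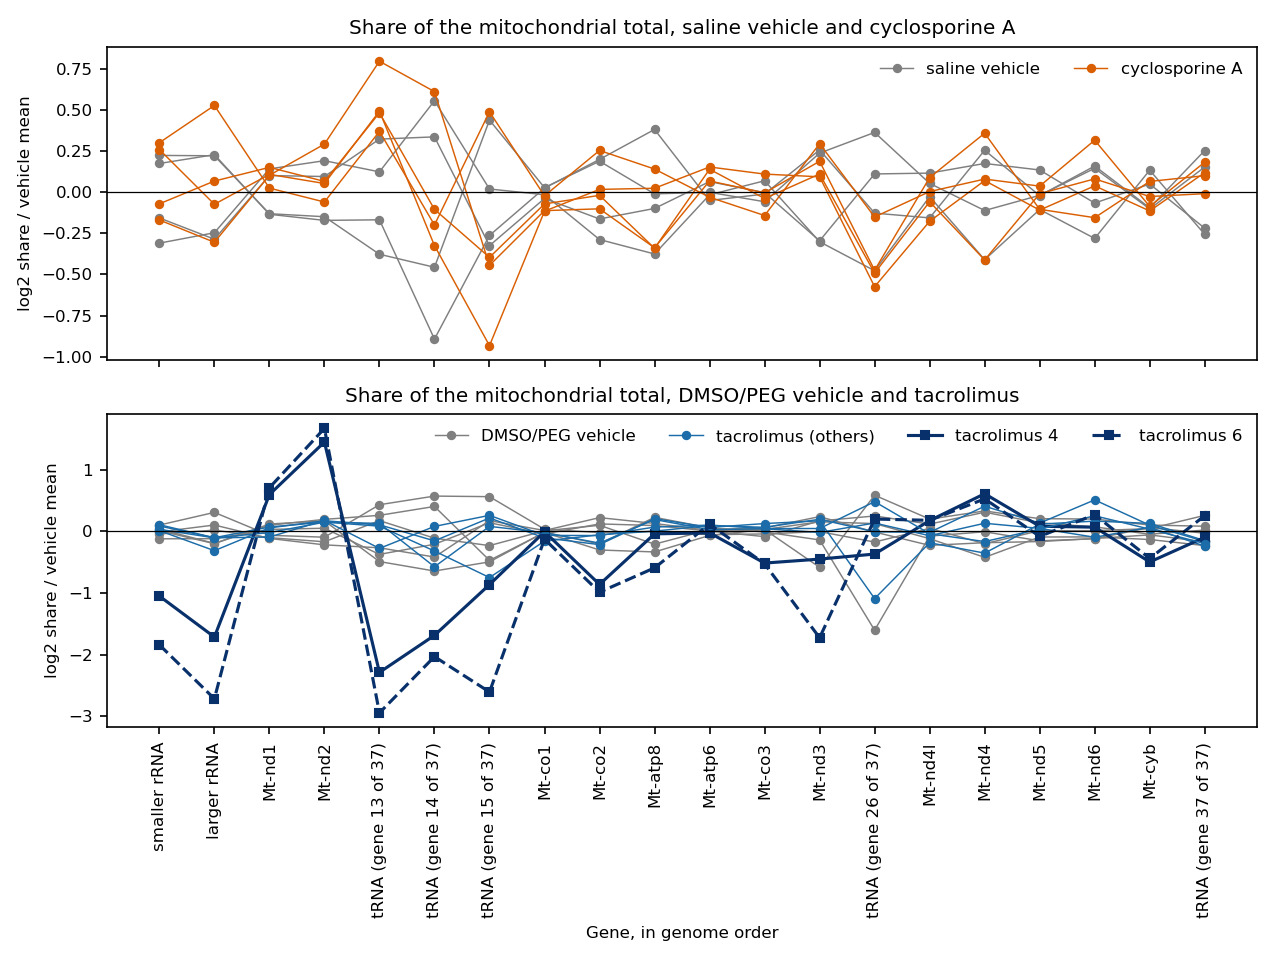
Share of each gene in the mitochondrial total, as log2 over the mean share of the vehicle group (vertical axis), for the 20 genes described singly in genome order, with a line for each library of the cyclosporine A table (upper panel) and the tacrolimus table (lower panel). Lines of drug and vehicle mix in the upper panel except at the tRNA gene labelled as gene 13 of 37, and in the lower panel tacrolimus libraries 4 and 6 lie apart at the rRNAs, Mt-nd1, Mt-nd2 and the tRNA genes next to Mt-nd2.

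On deposited FPKM, part of the mitochondrial genes rose with cyclosporine A while most of all genes tested fell. Of the 37 members, 30 passed the filter on low values (13 protein-coding, 2 rRNA, 15 tRNA). Of these, 10 rose and 0 fell at an adjusted p under 0.05 (limma, Benjamini-Hochberg over 13518 genes tested), where 0.207% of all genes tested rose and 80.6% fell. The count depended on the fit, with 3 calls at a pseudocount of 0.1, 2 with no filter on low values and 16 without the trend. Of the 10, the tRNA gene at 11665 to 11735 reached the fragment minimum in 1 of 4 saline and 4 of 4 treated libraries, so it was tested only because of the treated group and its call is no support. The median log2 change was 0.53 over the 30 members and -0.89 over all genes tested. In 12 of 30 the groups did not overlap with the drug on the higher side, against 0.118% of all genes tested. Since values of this table are shares of all fragments, a higher mitochondrial share lowers the nuclear values by construction.

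Among complex I genes, Mt-nd1, a membrane subunit, had deposited FPKM of 37504, 50331, 39112 and 36204 with saline and 63080, 58911, 62297 and 63201 with cyclosporine A. The groups did not overlap, and Mt-nd1 rose by 0.61 on the log2 scale (SE 0.23, adjusted p 0.0231, limma). Mt-nd2 rose by 0.61 (SE 0.24, adjusted p 0.0254) and Mt-nd3 by 0.71 (SE 0.26, adjusted p 0.0191). The other complex I genes did not pass the test, at 0.48 for Mt-nd4l (adjusted p 0.0822), 0.56 for Mt-nd4 (0.0953), 0.47 for Mt-nd5 (0.104) and 0.59 for Mt-nd6 (0.0553), all in limma.

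In complex IV, Mt-co2 and Mt-co3 rose, by 0.56 (SE 0.25, limma adjusted p 0.044) and 0.49 (SE 0.22, limma adjusted p 0.048). Mt-co1 did not pass at 0.43 (SE 0.22, limma adjusted p 0.0806), although its saline values of 103136, 140141, 133862 and 123981 lay below the 165640, 155616, 163747 and 187602 of cyclosporine A. Mt-atp6, the proton channel subunit of the ATP synthase, rose by 0.59 (SE 0.22, limma adjusted p 0.0216). Mt-cyb had a change of 0.47 (limma adjusted p 0.0645), Mt-atp8 of 0.41 (0.218), the smaller rRNA of 0.61 (0.0635) and the larger rRNA of 0.59 (0.0866). The calls thus split genes of similar change, since all 13 protein-coding genes lay between 0.41 and 0.71. Leaving out 1 library at a time gave 4 to 18 calls among the members. By gene, the calls of Mt-nd3 and of the tRNA gene at 5081 to 5152 held in 8 of 8 of these fits, those of Mt-nd1 and Mt-atp6 in 5, those of Mt-nd2, Mt-co2 and the tRNA gene at 15348 to 15415 in 3, and that of Mt-co3 in 2. The extremes of the count were 4 without cyclosporine A library 1 or 3 and 18 without saline library 2, and without saline library 4 there were 6.

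On rescaled FPKM the members were higher with cyclosporine A than with saline, but most did not pass the test over all genes. The log2 changes ran from 0.61 to 3.83. The 3.83 belongs to the tRNA gene at 11665 to 11735, tested only because of the treated group, and the next largest was 2.40. The change of scale moved the median log2 change of all genes tested from -0.89 to 0.0009, and that of the 30 members from 0.53 to 1.86. All 30 changes were above 0. Of the 30 members, 3 rose and 0 fell (limma, adjusted p under 0.05), where 0.325% of all genes tested rose and 0.281% fell. There were 0 calls with no filter on low values, 1 with a pseudocount of 0.1 and 11 without the trend. With no filter 21 of 35 members had an unadjusted p under 0.05 (limma). At an unadjusted p under 0.05, 28 of 30 were higher, against 7.32% of all genes tested. The groups did not overlap in 25 of 30 with the drug on the higher side, against 4.85% of all genes tested. The tRNA gene at 11665 to 11735 is counted in the 28 and the 25 and is no support there.

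The 3 that rose are tRNA genes on the minus strand. The tRNA gene at 5081 to 5152 had rescaled FPKM of 247, 624, 290 and 277 with saline and 1771, 1553, 1414 and 2525 with cyclosporine A. Saline library 2 was the highest of its group and still below every treated library. It rose by 2.40 on the log2 scale (SE 0.30, limma adjusted p 0.0196). The tRNA gene at 5185 to 5252 rose by 1.95 (SE 0.36, limma adjusted p 0.0493), from 89.8 to 338 with saline to 505 to 913 with cyclosporine A. The tRNA gene at 15348 to 15415, which has more fragments than any other tRNA gene, rose by 1.96 (SE 0.36, limma adjusted p 0.0493), from 2185, 4933, 4816 and 4265 to 15725, 11027, 11570 and 25514.

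These calls were close to the threshold. Leaving out 1 library at a time, the tRNA gene at 5081 to 5152 was called in 6 of 8 fits (log2 change 2.23 to 2.70) and lost without saline library 3 or 4, with limma adjusted p of 0.0863 and 0.0944. The genes at 5185 to 5252 and at 15348 to 15415 were each called in 1 of 8 fits, with limma adjusted p up to 0.138 and 0.131. Over all 30 members these fits gave 0 to 3 calls, with 0 without saline library 3 or 4 (27 and 26 at an unadjusted p under 0.05, limma) and 1 without saline library 1 or cyclosporine A library 1 or 3. Neither strand use in counting nor a separate measurement of the opposite strand is given in the sources used here, so fragments of these genes and of RNA from the other strand cannot be told apart.

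Protein-coding genes showed a narrow range on this scale. Their log2 changes ran from 1.74 (Mt-atp8) to 2.04 (Mt-nd3), 13 of 13 had an unadjusted p under 0.05, and none passed after adjustment over all genes, with adjusted p from 0.0634 (Mt-nd2) to 0.153 (Mt-co1). Mt-nd2 had rescaled FPKM of 17737, 36498, 23238 and 18902 with saline and 89346, 74960, 72499 and 128325 with cyclosporine A, a change of 1.94 (SE 0.39). Every treated library was above every saline library.

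For Mt-co1 the values were 51158, 110769, 87441 and 72111 with saline and 264697, 188517, 219484 and 438505 with cyclosporine A, a change of 1.77 (SE 0.54). Cyclosporine A library 4 was the highest and saline library 1 the lowest. Mt-cyb gave 1.81 (SE 0.43, limma adjusted p 0.0873), Mt-atp6 1.93 (SE 0.53, 0.123), Mt-co2 1.90 (SE 0.54, 0.133) and Mt-co3 1.83 (SE 0.50, 0.127). Within complex I, Mt-nd1 gave 1.95 (SE 0.41, 0.0726), Mt-nd4 1.89 (SE 0.39, 0.0659), Mt-nd4l 1.82 (SE 0.40, 0.0756), Mt-nd5 1.80 (SE 0.37, 0.0647) and Mt-nd6, the protein-coding gene on the minus strand, 1.93 (SE 0.40, 0.0676).

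The rRNAs, which form the core of the mitochondrial ribosome, had changes in the range of the protein-coding genes. The smaller rRNA (68 to 1025) had rescaled FPKM of 762, 1863, 1829 and 1461 with saline and 6269, 3310, 4010 and 10017 with cyclosporine A, a change of 1.94 (SE 0.39, limma adjusted p 0.062). The larger rRNA (1094 to 2664) went from 304, 651, 698 and 579 to 1901, 1151, 1686 and 4477, a change of 1.92 (SE 0.40, limma adjusted p 0.0676). In both, no saline library reached a treated library, and cyclosporine A library 4 was the highest. The level ratio of smaller to larger rRNA was 2.63 ± 0.165 with saline and 2.70 ± 0.485 with cyclosporine A (SD, n = 4).

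**Figure D3:**
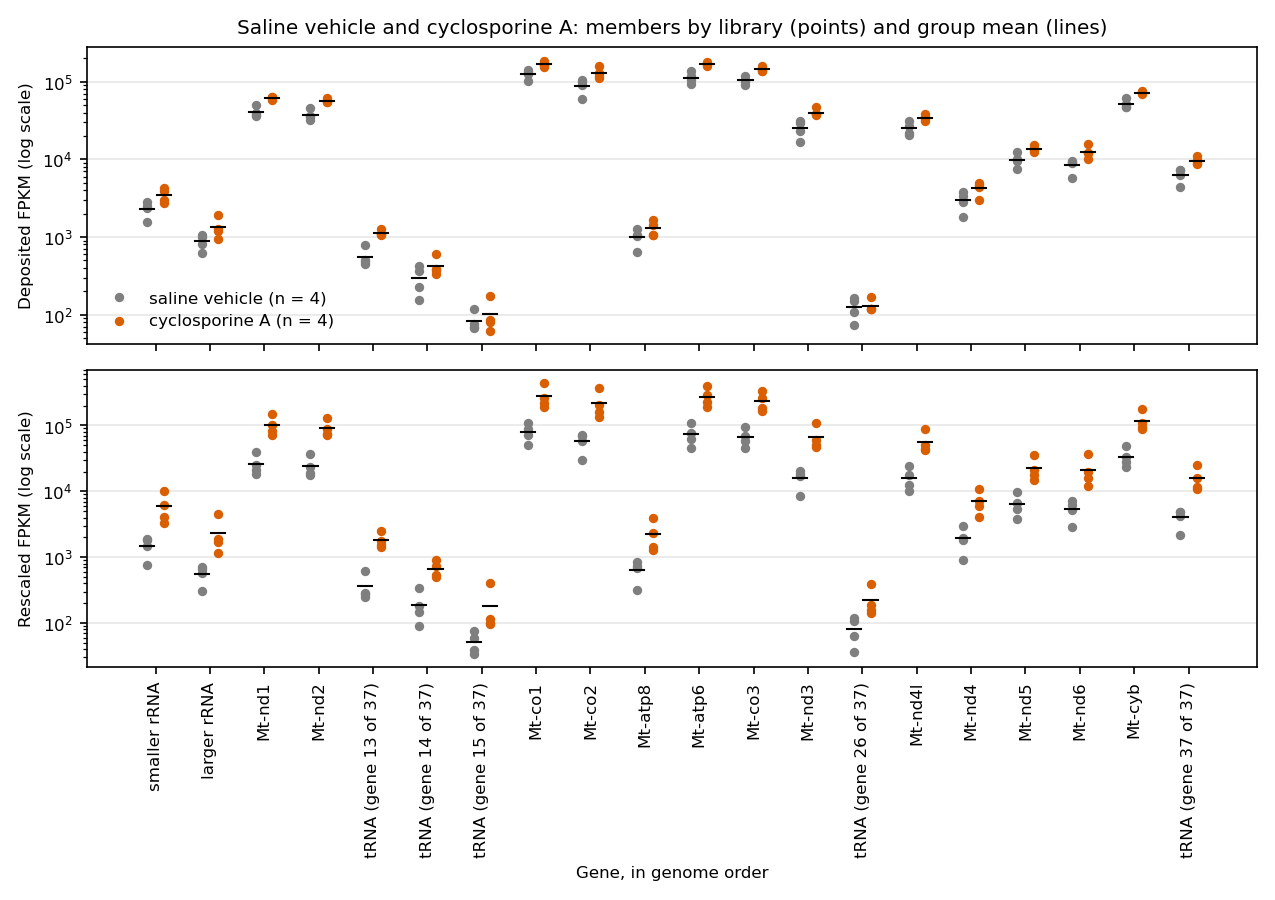
FPKM of the 20 genes described singly in the 4 saline and 4 cyclosporine A libraries (points; lines are group means), deposited (upper panel) and rescaled on nuclear genes (lower panel), on log axes and in genome order. On the deposited scale the treated libraries lie above the saline libraries for 12 of 20 genes, and on the rescaled scale the treated libraries lie above the saline libraries for all 20 genes.

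The tRNA genes covered a wide range. Of 22, the genes at 1 to 67 and at 3761 to 3831 had 0 fragments in every library, which allows a share of up to 1.04e-05% to 9.01e-05% of mitochondrial fragments depending on the library (3 fragments of its mitochondrial total, counting error only). The gene at 15348 to 15415 had a mean deposited FPKM of 6338 ± 1391 with saline, above Mt-nd4, and the next highest tRNA gene, at 5081 to 5152, had 552 ± 160 (SD, n = 4). In the saline group the gene at 5185 to 5252 had 292 ± 125, the gene at 9800 to 9867 124 ± 41.8 and the gene at 5256 to 5321 82.0 ± 23.5 (SD, n = 4). Of these 5, only the gene at 9800 to 9867 is on the plus strand, although 14 of the 22 tRNA genes are.

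With cyclosporine A, 4 of 15 tested tRNA genes rose on deposited FPKM, where 0.207% of all genes tested rose, with a median log2 change of 0.32 (from -0.55 to 2.83) beside -0.89 over all genes. On rescaled FPKM 3 of 15 rose, where 0.325% of all genes tested did, with a median of 1.54 (from 0.61 to 3.83) beside 0.0009. The gene at 11665 to 11735 was tested only because of the treated group. It is among the 4 and is no support there, and it holds the upper ends of 2.83 and 3.83. The next largest changes were 1.07 and 2.40. The tRNA gene at 5081 to 5152 rose by 1.07 on the deposited scale (SE 0.29, limma adjusted p 0.00321) and the gene at 15348 to 15415 by 0.63 (SE 0.27, limma adjusted p 0.0406). The genes at 5185 to 5252, 5256 to 5321 and 9800 to 9867 did not pass on that scale (0.62, 0.22 and 0.12), and the last 2 also did not on the rescaled scale (1.54 and 1.44). The tRNA gene at 14062 to 14130 rose on the deposited scale (0.90, SE 0.36, limma adjusted p 0.0297). The largest change, at 11665 to 11735 (2.83, SE 0.75, limma adjusted p 0.00288, deposited), came from few fragments, with FPKM of 0.411, 3.01, 1.33 and 12.9 with saline and 33.3, 7.66, 7.57 and 183 with cyclosporine A. The groups overlapped, and library 4 held most of the signal. These last genes were named after their values were seen.

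Of the cell type marker lists, only the thick ascending limb had sums that did not overlap between saline and cyclosporine A. The summed rescaled FPKM of its 3 markers was 280 to 531 with saline and 112 to 217 with cyclosporine A. The sum over the 2 listed of 3 erythroid markers was 66.4 to 183 with saline and 120 to 1136 with the drug, overlapping and highest in library 4. Proximal tubule sums overlapped (157 to 238 and 108 to 297, all 5 markers above 0), and skeletal muscle and liver markers stayed under 0.641 in sum. The part of these markers in the mitochondrial values was not tested. Without cyclosporine A library 4, 3 members were called on the rescaled scale, and 7 on the deposited scale, of which 6 rose and 1 fell.

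With tacrolimus, no mitochondrial gene passed the test. Of the 37 members, 23 passed the filter (13 protein-coding, 2 rRNA, 8 tRNA), and 0 of 23 rose or fell (limma, Benjamini-Hochberg over 15479 genes), where 0.0194% of all genes tested rose and 0.284% fell. At an unadjusted p under 0.05, 3 were lower, against 4.88% of all genes tested, and 0 were higher. The median log2 change was -0.03 over the 23 members and -0.0003 over all genes tested.

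Among complex I genes, Mt-nd2 ran from 4404 over a median of 5356 to 6766 FPKM with DMSO/PEG and from 5306 over a median of 5825 to 25194 with tacrolimus. The high values were 16354 and 25194 in libraries 4 and 6, while the other 4 libraries, at 5306 to 5883, lay within the vehicle range. The log2 change was 0.70 (SE 0.38, limma adjusted p 0.661), and 0.09 (SE 0.16) without libraries 4 and 6. Mt-nd1 showed the same libraries at the top, 13266 and 18926, with the others at 7147 to 7751, and a change of 0.29 (SE 0.26, limma adjusted p 0.85) that became -0.08 (SE 0.16) without them. Mt-nd3 gave -0.21 (SE 0.22), with library 6 the lowest at 2073 FPKM, and 0.04 (SE 0.17) without both libraries. Mt-nd4l, Mt-nd4, Mt-nd5 and Mt-nd6 gave 0.08, 0.28, 0.13 and 0.26, with limma adjusted p of 0.712 or more. Without libraries 4 and 6 they gave -0.16, -0.05, 0.01 and 0.13, so the direction for Mt-nd4l and Mt-nd4 turned.

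The rRNAs were lower in the same libraries. The smaller rRNA had 220 and 168 FPKM in tacrolimus libraries 4 and 6 and 362 to 421 in the other 4, beside 360 to 474 with DMSO/PEG. Its log2 change was -0.38 (SE 0.21, limma adjusted p 0.693) and -0.02 (SE 0.09) without them. The larger rRNA had 52.7 and 34.8 in those libraries and 110 to 140 in the others, beside 130 to 195 with vehicle, a change of -0.76 (SE 0.32, limma adjusted p 0.496) and of -0.23 (SE 0.11) without them. Both rRNAs of libraries 4 and 6 were thus below every other library of the table.

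Among the remaining protein-coding genes, Mt-co1 gave -0.02 (SE 0.26), Mt-co2 -0.32 (SE 0.21), Mt-co3 -0.06 (SE 0.21), Mt-cyb -0.03 (SE 0.18), Mt-atp6 0.13 (SE 0.24) and Mt-atp8 0.05 (SE 0.10), with limma adjusted p from 0.75 to 0.994. Without libraries 4 and 6 they gave -0.17, -0.21, -0.01, -0.0009, -0.01 and 0.04 in the same order, so the direction for Mt-atp6 turned. Mt-co1 ran from 25106 over a median of 26618 to 32963 FPKM with DMSO/PEG and from 22800 over a median of 26292 to 37713 with tacrolimus, so the groups overlapped. Among tRNA genes, those at 5081 to 5152, 5185 to 5252 and 5256 to 5321 gave -0.74 (SE 0.42), -0.64 (SE 0.28) and -0.48 (SE 0.33), and -0.03, -0.26 and -0.08 without libraries 4 and 6. The genes at 9800 to 9867 and 15348 to 15415 gave 0.09 (SE 0.38) and -0.03 (SE 0.18). Without both libraries, 0 of 23 members passed the test, and 1 had an unadjusted p under 0.05, the gene at 15348 to 15415 (-0.26, SE 0.10, limma adjusted p 0.52).

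**Figure D4:**
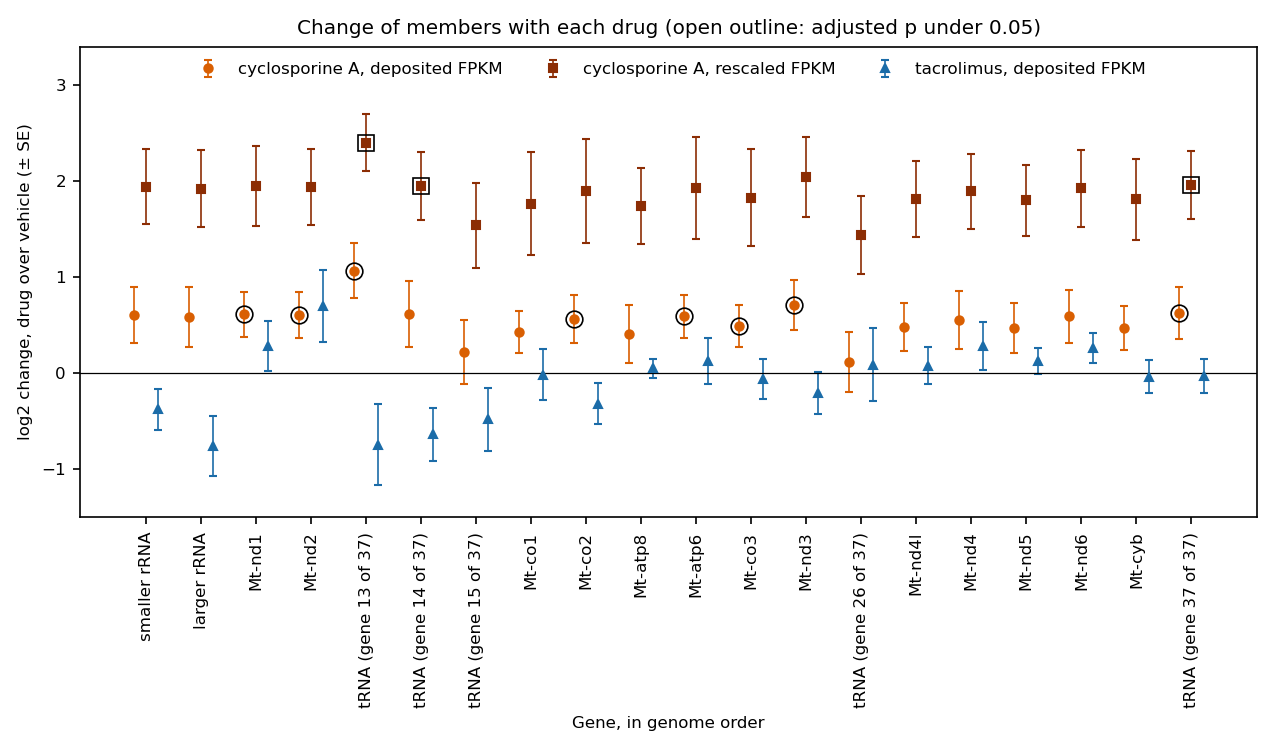
log2 change with drug over vehicle (vertical axis, with SE) of the 20 genes described singly, in genome order, for cyclosporine A on deposited and rescaled FPKM and for tacrolimus on deposited FPKM. Rescaled changes with cyclosporine A lie between 1.44 and 2.40, deposited ones between 0.12 and 1.07, and changes with tacrolimus between -0.76 and 0.70.

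As shares of mitochondrial fragments, tacrolimus libraries 4 and 6 differed from the rest gene by gene. Mt-nd1 had 9.65% and 10.4% in them and 5.89% to 6.93% in the other 10 libraries of the table, and Mt-nd2 12.9% and 15.1% against 4.07% to 5.42%. The smaller rRNA had 0.161% and 0.0927% against 0.306% to 0.358%, and the larger rRNA 0.0631% and 0.0315% against 0.167% to 0.257%. Mt-co2 had 5.30% and 4.86% against 7.82% to 11.3%, Mt-co3 8.29% and 8.22% against 11.2% to 12.9%, and Mt-cyb 8.22% and 8.55% against 10.6% to 12.7%. In contrast, Mt-atp6 at 11.6% and 12.8% lay within or next to the range of the others, 11.2% to 12.6%. Mt-nd1 (2740 to 3694) and the smaller rRNA lie near each other on the plus strand, and the level of Mt-nd1 was 60.3 and 113 times that of the smaller rRNA in these libraries, against 17.0 to 21.4 times in the others.

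With these libraries included, complex I shares were 22.8% ± 6.18 with tacrolimus and 17.9% ± 1.29 with DMSO/PEG, and complex IV shares 53.3% ± 4.04 and 58.1% ± 1.73 (SD, n = 6). The median shares with tacrolimus, 19.4% for complex I and 54.9% for complex IV, lay closer to the vehicle. The difference in log2 share over the 15 protein-coding and rRNA genes ran from -0.83 (larger rRNA, SE 0.46) to 0.64 (Mt-nd2, SE 0.30) with all libraries and from -0.14 to 0.22 without libraries 4 and 6, and in 0 of 15 did the groups not overlap in either case. Mt-co1 had 36.6% ± 0.688 with DMSO/PEG and 34.7% ± 1.45 with tacrolimus, a difference in log2 share of -0.08 (SE 0.03) that was -0.09 (SE 0.03) without them.

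Among the cell type markers of the tacrolimus table, distal convoluted tubule markers differed, with sums of 97.2 to 113 FPKM with DMSO/PEG and 31.7 to 57.9 with tacrolimus. Thick ascending limb sums were 2095 to 2575 with DMSO/PEG and 1678 to 1935 in 5 of 6 tacrolimus libraries, while tacrolimus library 6 had 2614, above all others. Proximal tubule sums were 2255 to 2591 and 2366 to 2598. The part of these markers in the mitochondrial values was not tested.

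The changes with the drugs were compared directly by subtracting the tacrolimus change from the cyclosporine A change on rescaled FPKM, gene by gene. Of 23 members tested in both tables, 7 differed, all with the larger value for cyclosporine A (limma standard errors, adjusted p under 0.05 over 13443 genes), against 0.855% of all genes tested. All 23 differences were above 0 with an unadjusted p under 0.05, against 7.39% of all genes tested, with a median of 1.85 against 0.005 over all genes. The 7 were the tRNA genes at 5081 to 5152 (3.15, SE 0.51, limma adjusted p 0.00448), 5185 to 5252 (2.59, SE 0.45, 0.00834), 2665 to 2739 (2.62, SE 0.62, 0.0385) and 15348 to 15415 (1.99, SE 0.40, 0.0265), the larger rRNA (2.68, SE 0.51, 0.0154), the smaller rRNA (2.32, SE 0.44, 0.0209) and Mt-nd3 (2.25, SE 0.48, 0.032).

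The gene at 2665 to 2739 is outside the rule for genes described singly and was named after its values were seen. Its rescaled FPKM was 15.2, 46.0, 31.4 and 15.02 with saline and 57.3, 68.9, 59.4 and 87.5 with cyclosporine A, and tacrolimus libraries 4 and 6 held 1 fragment each, against 13 to 37 in the other libraries of that table.

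Other protein-coding genes ranged from 1.24 (Mt-nd2, SE 0.55, limma adjusted p 0.266) to 2.22 (Mt-co2, SE 0.58, limma adjusted p 0.0746) and did not pass. Without tacrolimus libraries 4 and 6, 10 of 23 differed (limma standard errors), against 0.714% of all genes tested, and Mt-nd2 was at 1.86 (SE 0.42, limma adjusted p 0.0547), within a range of 1.70 (Mt-atp8) to 2.11 (Mt-co2) over the protein-coding genes. Mt-nd3 then missed the test at 2.01 (limma adjusted p 0.0519), while Mt-nd1, Mt-nd4l, Mt-nd4 and Mt-nd5 passed at 2.03, 1.97, 1.95 and 1.80. The other 6 of the 7 passed with and without these libraries, at 2.44, 2.21, 1.72 and 2.23 for the tRNA genes at 5081, 5185, 2665 and 15348, 2.15 for the larger rRNA and 1.97 for the smaller rRNA. Leaving out 1 library at a time gave 2 to 8, with 2 without saline library 4, 3 without saline library 1 or cyclosporine A library 1 and 4 without saline library 3. The drugs were given in different vehicles, at different target levels and measured in different tables, so drug, vehicle and table cannot be told apart in this comparison.

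**Figure D5:**
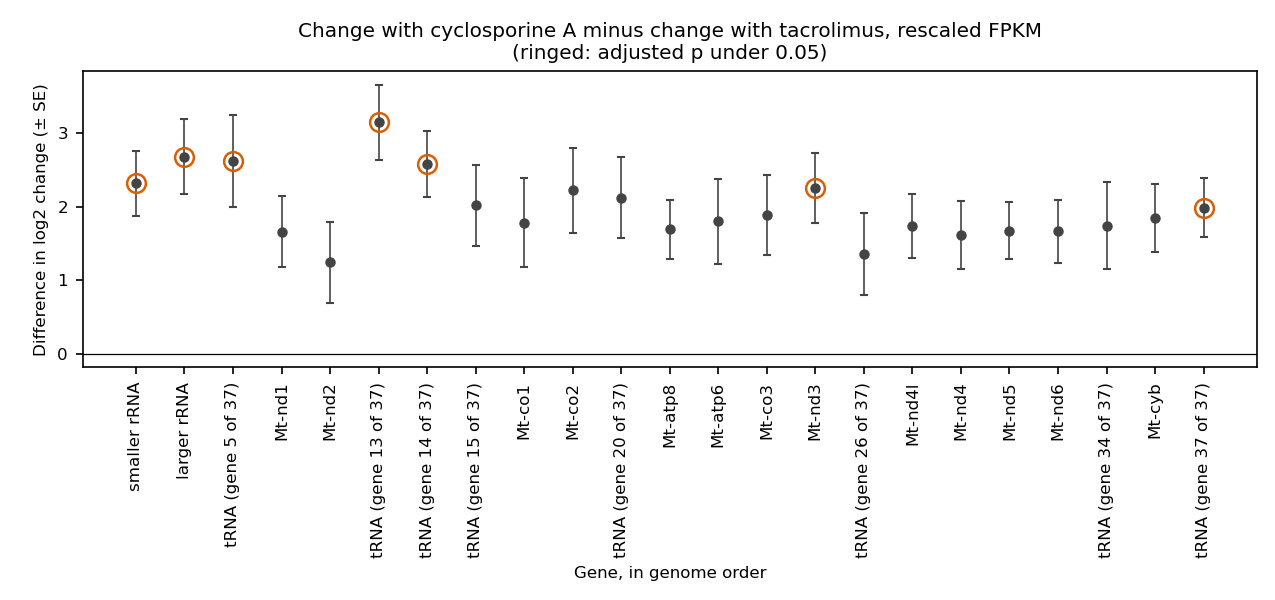
Change with cyclosporine A minus change with tacrolimus (log2, rescaled FPKM, with SE) for the 23 genes tested in both tables, in genome order, with the 7 genes at an adjusted p under 0.05 ringed. All 23 points lie above 0, from 1.24 at Mt-nd2 to 3.15 at the tRNA gene labelled as gene 13 of 37.

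Nuclear genes of the same machinery were lower with cyclosporine A on deposited FPKM and nearly all missed the test on rescaled FPKM. Of 77 listed nuclear subunits of the respiratory chain and ATP synthase, 70 were tested in the cyclosporine A table. On deposited FPKM 68 of 70 fell, where 80.6% of all genes tested fell, with a median log2 change of -1.32 beside -0.89 over all genes tested. Changes are on log2(FPKM + 1), which draws those of low-level genes towards 0, so deposited medians of these lists also depend on level. The part of level in them was not tested. On rescaled FPKM 0 of 70 passed (limma), with a median of -0.01, and with tacrolimus 0 of 73, with a median of -0.07. At an unadjusted p under 0.05 (limma) 3 of 70 were higher and 3 lower on rescaled FPKM, where 7.32% and 8.81% of all genes tested were, and with tacrolimus 2 of 73 were lower, where 4.88% were. Over all genes tested only 0.325% rose and 0.281% fell on rescaled FPKM, and 0.0194% and 0.284% with tacrolimus, so that counts of 0 in these lists and the next are near the background and mark nothing particular to them.

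Genes that copy, transcribe and process the mitochondrial genome had similar counts. Of this list, 30 of 31 fell on deposited FPKM with cyclosporine A (median -1.04, beside 80.6% and -0.89 over all genes tested), 0 of 31 passed on rescaled FPKM (median -0.07) and 0 of 35 with tacrolimus (median 0.003). At an unadjusted p under 0.05 (limma), 2 of 31 were higher and 1 lower on rescaled FPKM, where 7.32% and 8.81% of all genes tested were. Polrmt, the mitochondrial RNA polymerase, had 1.77 ± 0.159 rescaled FPKM with saline and 1.59 ± 0.502 with cyclosporine A (SD, n = 4), a change of -0.12 (SE 0.16, limma adjusted p 0.771). Tfam, which packs the genome and starts its transcription, had 12.6 ± 2.11 and 10.7 ± 1.99 (SD, n = 4; change -0.22, SE 0.16, limma adjusted p 0.533). Lrpprc and Slirp, which together stabilize mitochondrial mRNAs, gave -0.04 (SE 0.11) and -0.02 (SE 0.14). Ppargc1a, a coactivator of nuclear genes for mitochondria, gave 0.35 (SE 0.20, limma adjusted p 0.428). With tacrolimus, Polrmt, Tfam, Lrpprc, Slirp and Ppargc1a gave 0.04, 0.05, 0.03, -0.07 and -0.33, with limma adjusted p of 0.411 or more.

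Mitochondrial aminoacyl-tRNA synthetases, which charge the tRNAs, fell in 16 of 16 on deposited FPKM with cyclosporine A (median -0.93, close to the -0.89 over all genes tested, of which 80.6% fell) and passed in 0 of 16 on rescaled FPKM (median -0.11) and 0 of 17 with tacrolimus (median 0.01). At an unadjusted p under 0.05 (limma), 0 of 16 were higher and 3 lower on rescaled FPKM, where 7.32% and 8.81% of all genes tested were. Among genes used as a measure of mitochondrial mass, 13 of 13 fell on deposited FPKM (median -1.47) and 1 of 13 on rescaled FPKM (median -0.19), where 80.6% and 0.281% of all genes tested fell. That gene was Tomm70a, a receptor for protein import, at 9.12 ± 0.699 rescaled FPKM with saline and 5.33 ± 0.311 with cyclosporine A (SD, n = 4), a fall by 0.67 on the log2 scale (SE 0.10, limma adjusted p 0.0304). With tacrolimus 0 of 13 passed (median -0.03). At an unadjusted p under 0.05 (limma), 4 of 13 mass genes were lower with cyclosporine A on rescaled FPKM and 0 higher. Over all genes tested 8.81% were lower and 7.32% higher. With tacrolimus 1 of 13 was lower, where 4.88% of all genes tested were. These lists were chosen with earlier results of these data known.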

How the data were processed

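Bulk RNA-seq libraries of rat kidney, 20 in all, were used. The deposited FPKM values were read from a table for each drug with its vehicle, and columns were matched to samples by name. Per the submitters' processing notes, HISAT2 and the rn6 build were used, and the counter, annotation release and strand setting are not given in the sources used here. The unit was inferred from the deposited values. Fragments were recovered from FPKM and gene length. The values of all mitochondrial genes came out whole (tolerance 0.001), as did 100% of tacrolimus values and 74.2% of values in the cyclosporine A table with the listed length. The recovered numbers served for shares, depth and the filter.

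limma 3.58.1 (R 4.3.3, trend, group as the single term) was fitted to log2(FPKM + 1) of all genes with at least 15 fragments over the table and, in a number of libraries equal to the smaller group, at least 10 at the median depth. Fold changes are on that scale. Benjamini-Hochberg adjustment covered all genes tested, and calls were at an adjusted p under 0.05. Rescaled FPKM divided each library by its median of ratios over 12404 (cyclosporine A) or 16205 (tacrolimus) nuclear genes above 0 in every library. The fit was tested on simulated data.

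The members and the lists were chosen with earlier results of these data known. Genes described singly are the 13 protein-coding and 2 rRNA genes and, in each table, the 5 tRNA genes with most fragments. Of the nuclear lists, 5 genes are always named, and beside them the called genes with the largest changes. List genes with the same symbol were counted once, at the highest level. Symbols differed between the tables for 2 members (Mt-cox3 and Mt-cytb in the cyclosporine A table), which were matched by identifier. Shares and sums over the members were given no test.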

Additional observations from a re-analysis of the deposited data

Results flagged for a closer look

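In 7 of the 23 members tested in both tables the drugs gave different changes by a test of the difference itself (limma standard errors, adjusted p under 0.05, rescaled FPKM). The differences in log2 change were 3.15 for the tRNA gene at 5081 to 5152, 2.68 for the larger rRNA, 2.62 for the tRNA gene at 2665 to 2739, 2.59 for that at 5185 to 5252, 2.32 for the smaller rRNA, 2.25 for Mt-nd3 and 1.99 for the tRNA gene at 15348 to 15415. Vehicle and table differ between the drugs in the same way.

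In 10 of 124 groups of 4 or 6 libraries the highest or lowest library lay far from the others, taken as the gap to its neighbour over the whole range. Chance alone gives this in about 1 in 20 groups, and values of genes of a library are not independent. Saline library 2 was far above its group for the tRNA gene at 5081 to 5152, at 789.8 deposited and 624 rescaled FPKM, with the next at 498 and 289.8. Saline library 1 was the lowest for Mt-nd6, at 5702 FPKM against 9042 or more.

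Cyclosporine A library 4 was far above its group for Mt-nd3 (46611 deposited FPKM against at most 38230), Mt-nd4l (88638 rescaled FPKM against at most 50360), the tRNA gene at 5256 to 5321 (410.1 rescaled FPKM against at most 115) and that at 9800 to 9867 (167 deposited FPKM against at most 119). Tacrolimus library 6 was far above the others for Mt-atp6 (32500 FPKM against at most 22302) and the tRNA gene at 15348 to 15415 (2358 against at most 1399). Tacrolimus library 4 was the lowest for Mt-co3, at 13880 FPKM against 17053 or more.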

How the results depend on the processing

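On deposited FPKM with cyclosporine A, 10 members were called, and 3 with a pseudocount of 0.1, 2 with no filter and 16 with no trend. On rescaled FPKM 3 were called, and 1, 0 and 11 with the same alternatives (with no filter, 21 of 35 at an unadjusted p under 0.05 in limma). For the difference between the drugs, 7 were called, 3 with no filter and 15 with no trend. Leaving out 1 library at a time gave 4 to 18, 0 to 3 and 2 to 8 calls in these comparisons, and the summed share differences ran from 2.21 to 2.77 percentage points for cyclosporine A and from 3.64 to 6.62 for tacrolimus. Array weights and scaling by the nuclear sum kept each count within 1.5 times. With tacrolimus, limma called 0 members under every alternative run, with 0 to 4 at an unadjusted p under 0.05 when 1 library was left out. The cause of these shifts was not tested.

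Replicate numbers did not pair the samples: same-numbered libraries correlated in their deviations from the group mean at -0.15 to 0.22 (cyclosporine A) and -0.15 to 0.18 (tacrolimus). With the replicate number as a block, 7, 0 and 4 members were called on deposited FPKM, on rescaled FPKM and in the difference, and 0 with tacrolimus. At an unadjusted p under 0.05 (limma) these were 24 of 30 on rescaled FPKM and 2 of 23 with tacrolimus.

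Some single genes changed sign. With cyclosporine A on deposited FPKM, leave-one-out ranges crossed 0 for the tRNA genes at 5256 to 5321 (-0.082 to 0.42) and 9800 to 9867 (-0.11 to 0.28). With tacrolimus they did so for Mt-co1 (-0.11 to 0.038), Mt-atp8 (-0.0037 to 0.12), Mt-nd4l (-0.056 to 0.17), Mt-cyb (-0.067 to 0.025) and the tRNA genes at 9800 to 9867 (-0.21 to 0.33) and 15348 to 15415 (-0.20 to 0.034). Array weights gave -0.17 for the gene at 9800 to 9867 and -0.012 for Mt-nd4l. Without tacrolimus libraries 4 and 6, an alternative added after seeing the data, the values were -0.079 for Mt-nd1, -0.013 for Mt-atp6, 0.038 for Mt-nd3, -0.071 for the gene at 9800 to 9867, -0.16 for Mt-nd4l and -0.054 for Mt-nd4, and the summed share difference was 3.00 instead of 5.65 points.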
